A study of Mus musculus with 6 samples.

Results

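The SR and hnRNP splicing factors are RNA-binding proteins that decide which splice sites of a pre-mRNA are used. They were described here as 46 genes of the 13426 genes in the RNA-seq table, picked by gene symbol from a fixed list of names, and every one of the 46 had a row. They comprise 10 SR protein genes, 2 TRA2 genes, 20 hnRNP genes, 2 PTB genes, 2 TIA genes, both subunits of U2AF, 4 CLK kinases, and 4 RBM and cold-inducible genes.

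The sorted cells were of the early LPre-B stage (large precursor B cells) of mouse bone marrow, with 3 libraries from *Upf1*-cKO mice (*Upf1* Flox/Flox, *Mb1* Cre/+) and 3 from Ctrl mice (*Upf1* Flox/Flox, *Mb1* +/+). The comparison asks how loss of UPF1, the RNA helicase of nonsense-mediated mRNA decay (NMD), changes the transcriptome at this stage. Both groups carried the floxed *Upf1* alleles, so Ctrl cells differed from *Upf1*-cKO cells in having no Cre. Cre was expressed from one allele of *Cd79a* (the *Mb1* gene), a B cell receptor component, so the effects of Cre, of the altered *Cd79a* allele and of *Upf1* loss cannot be told apart. The study used age-matched mice of both sexes, and the labels give neither age nor sex for a library.

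SR proteins bind exons through RNA recognition motifs and recruit the spliceosome through domains rich in arginine and serine, which the CLK kinases phosphorylate. hnRNP proteins coat nascent transcripts and often repress the use of nearby splice sites. Many of these genes control their own dose through alternative splicing: when the protein is abundant, it promotes an mRNA form with a premature stop codon, which NMD then degrades. Such a stop often lies in a so-called poison exon, a cassette exon that is skipped in the coding mRNA, or arises from an intron spliced in the 3′ part of the gene after the ordinary stop codon.

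The annotation (GENCODE M21, mouse build GRCm38) holds 78 transcripts of the members that are classed as NMD targets, from 35 of the 46 genes. In 34 of these transcripts, from 15 members, the stop lies in an exon absent from the protein-coding transcripts of the gene. The stretches below run from the first base of such an exon to its in-frame stop codon, for 10 of the 11 called members of this kind (that of *Cirbp* is too short to show), and the capitals mark the stop codon. Where a gene has several such transcripts, the one with the fewest incomplete ends and then the most exons is shown, and ties went to the first transcript by name. Ties arose for *Srsf4*, whose tied transcripts share the stop, and for *Rbm39* and *Tia1*. In *Rbm39* and *Tia1* the tied transcripts have their stops in other exons, so the stretch shown is 1 of several. They are shown because they are the annotated elements that can turn these mRNAs into NMD substrates.

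*Srsf3*: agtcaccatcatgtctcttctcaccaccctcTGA
*Tra2b*: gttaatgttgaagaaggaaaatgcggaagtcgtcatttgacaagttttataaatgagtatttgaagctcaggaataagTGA
*Tra2a*: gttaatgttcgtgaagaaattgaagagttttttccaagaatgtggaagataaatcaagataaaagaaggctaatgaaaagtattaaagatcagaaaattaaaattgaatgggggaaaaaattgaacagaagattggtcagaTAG
*Srsf4*: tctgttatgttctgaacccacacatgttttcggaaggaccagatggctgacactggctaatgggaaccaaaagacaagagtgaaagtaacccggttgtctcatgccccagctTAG
*Srsf11*: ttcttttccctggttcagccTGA
*Rbm39*: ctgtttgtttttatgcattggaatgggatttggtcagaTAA
*Tia1*: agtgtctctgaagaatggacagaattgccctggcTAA
*Tial1*: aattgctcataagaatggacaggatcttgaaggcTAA
*Srsf9*: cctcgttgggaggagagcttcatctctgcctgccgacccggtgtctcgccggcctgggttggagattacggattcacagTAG
*Rbm3*: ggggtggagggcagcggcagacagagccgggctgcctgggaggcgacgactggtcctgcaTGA

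The *Srsf3* stretch is at chr17:29039454-29039487 on the plus strand, in exon 4 of 7 of its NMD transcript, an exon of 456 bases with 3 exon junctions after the stop. The *Tra2b* stretch is at chr16:22259181-22259261 and the *Tra2a* stretch at chr6:49252965-49253108, both on the minus strand and both in exon 2 of the transcript. These 2 stretches share their first 9 bases, gttaatgtt. The *Srsf4* stretch is at chr4:131884276-131884390 (plus strand), that of *Srsf11* at chr3:158024209-158024231 (minus strand) and that of *Rbm39* at chr2:156152473-156152513 (minus strand). The *Srsf9* stretch is at chr5:115328347-115328428 (plus strand) and that of *Rbm3* at chrX:8144383-8144445 (minus strand). The *Srsf4* and *Srsf9* transcripts are annotated as incomplete at their ends. The *Tia1* stretch at chr6:86423606-86423642 (plus strand) and the *Tial1* stretch at chr7:128447071-128447107 (minus strand) are both 37 bases long, carry the same base at 25 of 37 positions, and share the run aagaatggacag of 12 bases.

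In 12 further NMD transcripts, from 7 members, the stop codon is one that a protein-coding transcript also uses, and exon junctions follow it. This is the layout of *Hnrnpdl*, *Hnrnpa1*, *Hnrnpd*, *Hnrnpa2b1* and *Srsf2*, where added splicing after the ordinary stop makes the transcript an annotated NMD target. The stop lies in an exon shared with protein-coding transcripts in 21 NMD transcripts (12 members), as after the skipping of an upstream exon of *Ptbp1*, and in a longer or shorter form of a coding exon in 11 (8 members). The values below are sums over all reads of a gene, so they do not resolve coding from NMD transcripts, and whether the annotation used for counting included these exons is not given in the sources used here.

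**Figure D1:**
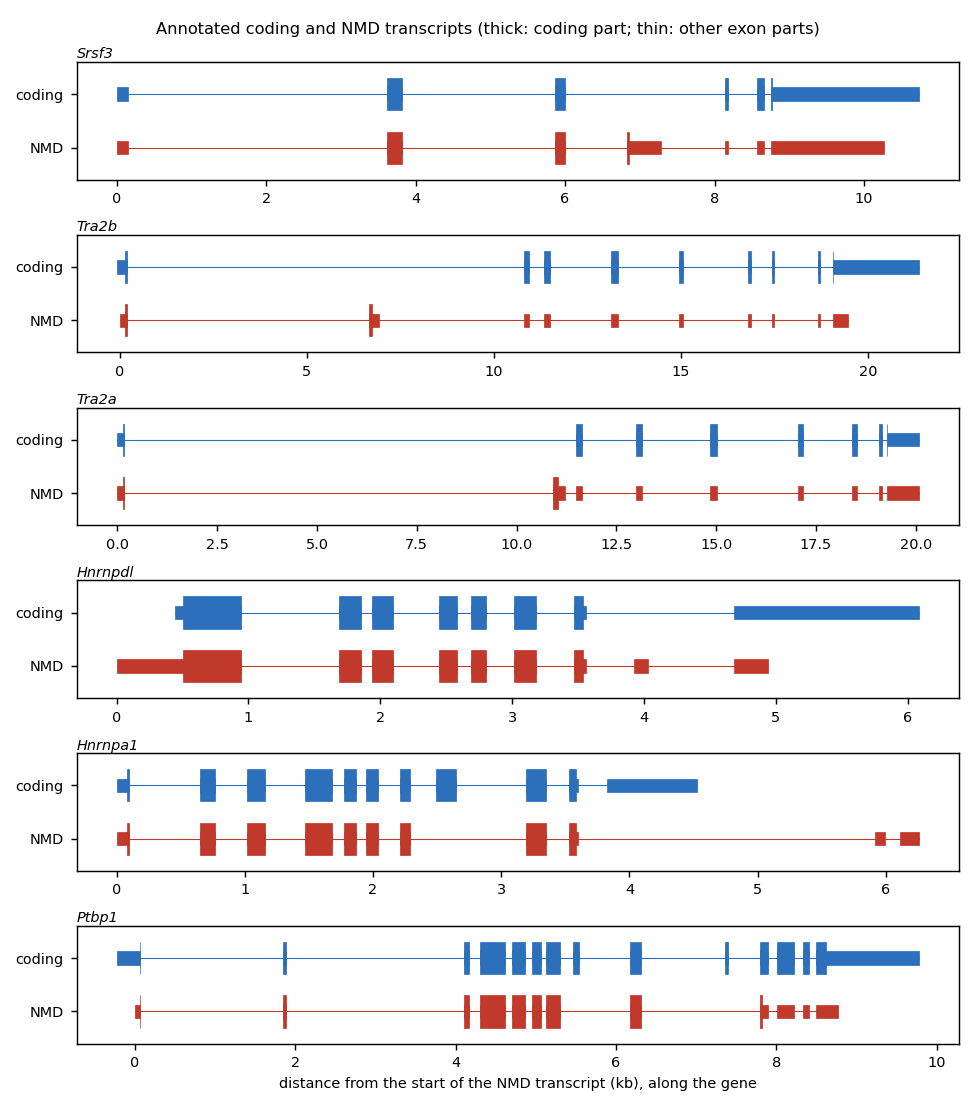
Exon maps of 1 protein-coding (blue) and 1 NMD-annotated (red) transcript for 6 members, drawn 5′ to 3′ with distance in kb from the start of the NMD transcript on the horizontal axis. Thick boxes are coding parts and thin boxes other exon parts: in *Srsf3*, *Tra2b* and *Tra2a* the red coding part ends inside an exon that the blue transcript lacks, whereas in *Hnrnpdl* and *Hnrnpa1* it ends at the ordinary stop and further exons follow.

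Values are normalised reads, that is reads per 1e6 of effective library size, and log2 fold changes are *Upf1*-cKO minus Ctrl on the log2(value + 1) scale with limma's moderated SE. A gene was called when limma's Benjamini-Hochberg adjusted p over all 13426 genes was below 0.05. Reads assigned to the 13426 genes, worked back from the values, numbered 9732498 to 11006834 per library. *Upf1* itself was at 260, 203 and 259 normalised reads in Ctrl and at 308, 283 and 300 in *Upf1*-cKO (log2 fold change 0.31, SE 0.0892, limma adjusted p = 0.00696). The gene's summed reads were thus not lower in the libraries labelled *Upf1*-cKO, and a row per gene does not show whether the floxed exons were removed. *Cd79a* was at 213 to 234 normalised reads in Ctrl and 71.6 to 75.2 in *Upf1*-cKO (log2 fold change -1.58, limma adjusted p = 1.24e-11), which separates the groups as the Cre allele in the labels does. The B lineage transcription factor genes *Pax5* and *Ebf1* were present in all libraries, with *Pax5* at 209 to 256 normalised reads in Ctrl and 214 to 219 in *Upf1*-cKO, and *Ebf1* at 363 to 478 and 417 to 433. They belong to a list of 13 B lineage markers, of which 6 were higher and 2 lower by limma (46.2% and 15.4%, against 27.7% and 25.0% of all genes). Its largest log2 fold changes were *Dntt* at 1.64, *Cd79a* at -1.58, *Rag1* at 1.55 and *Rag2* at 1.16. Of 12 neutrophil and monocyte markers 6 were higher and 0 lower by limma (27.7% of all genes were higher and 25.0% lower), with 9 higher by voom, 5 by edgeR, 7 by DESeq2, 8 after scaling to total reads and 3 without Ctrl replicate 3 and *Upf1*-cKO replicate 2 (0 lower in each, and at an unadjusted p below 0.05). Their summed level was 45.9 to 161 normalised reads in Ctrl and 399 to 544 in *Upf1*-cKO, with the highest Ctrl level in replicate 1 (*Ltf* at 28.0 there against 1.77 and 1.84), and their part in the results was not tested. No erythroid marker (4 of 8 in the table) and no T or NK cell marker (1 of 8, *Nkg7*) was called by limma (0 at an unadjusted p below 0.05, and 0 by voom, edgeR and DESeq2). After quantile normalization and after median centring, 1 of the 4 erythroid markers was called lower. In bulk RNA, fewer cells of a type and less RNA per cell cannot be told apart.

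Ctrl replicate 3 and *Upf1*-cKO replicate 2 stood apart for these genes. Ctrl replicate 3 was the highest Ctrl library for 35 of 46 members (76.1%, against 31.7% of all genes) and *Upf1*-cKO replicate 2 the highest of its group for 30 (65.2%, against 33.2%). The mitochondrial ribosomal RNA *mt-Rnr1* moved the same way, at 778 normalised reads in Ctrl replicate 3 and 207 in *Upf1*-cKO replicate 2 against 70.3 to 125 in the other 4 libraries. The 2 libraries were not alike in all respects. The rank correlation of a library's deviation from its group mean with gene GC content was -0.341 for Ctrl replicate 3 and -0.022 for *Upf1*-cKO replicate 2 (8940 genes). The part of these libraries in single results is given below by values without them.

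The splicing factors split into both directions. By limma 13 members were higher in *Upf1*-cKO, 17 were lower and 16 were not called. The shares were 28.3% higher and 37.0% lower, where 27.7% of all genes tested were called higher and 25.0% lower, and 52.7% in either direction. The higher share was thus near that of all genes. Genes at low levels were called less often. In a fit of the 9202 genes with a mean log2 value of at least 3, 28.7% were higher and 31.3% lower (60.0% either way). That fit kept 45 of the members, with 13 higher and 17 lower, so the excess of lower calls was smaller beside these genes. The median log2 fold change was -0.07 over the members and 0.01 over all genes, and no member passed 1 on the log2 scale in either direction. Under another scaling *Srsf3* reached 1.06 (quantile normalization) and 1.03 (total reads), and *Hnrnpa1* -1.01 (median centring). Without both Ctrl replicate 3 and *Upf1*-cKO replicate 2, 14 members were higher and 19 lower, where 23.0% and 20.7% of all genes were called. Another scaling moved the split. There were 20 members higher and 13 lower after quantile normalization (24.8% and 27.9% of all genes), 18 and 8 after scaling to total reads (38.5% and 14.4%), and 11 and 20 after median centring (22.3% and 32.4%). The 3 Ctrl and 3 *Upf1*-cKO libraries did not overlap for 31 of 46 members (13 higher and 18 lower), where 58.8% of all genes tested did not overlap (30.9% higher and 28.0% lower).

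**Figure D2:**
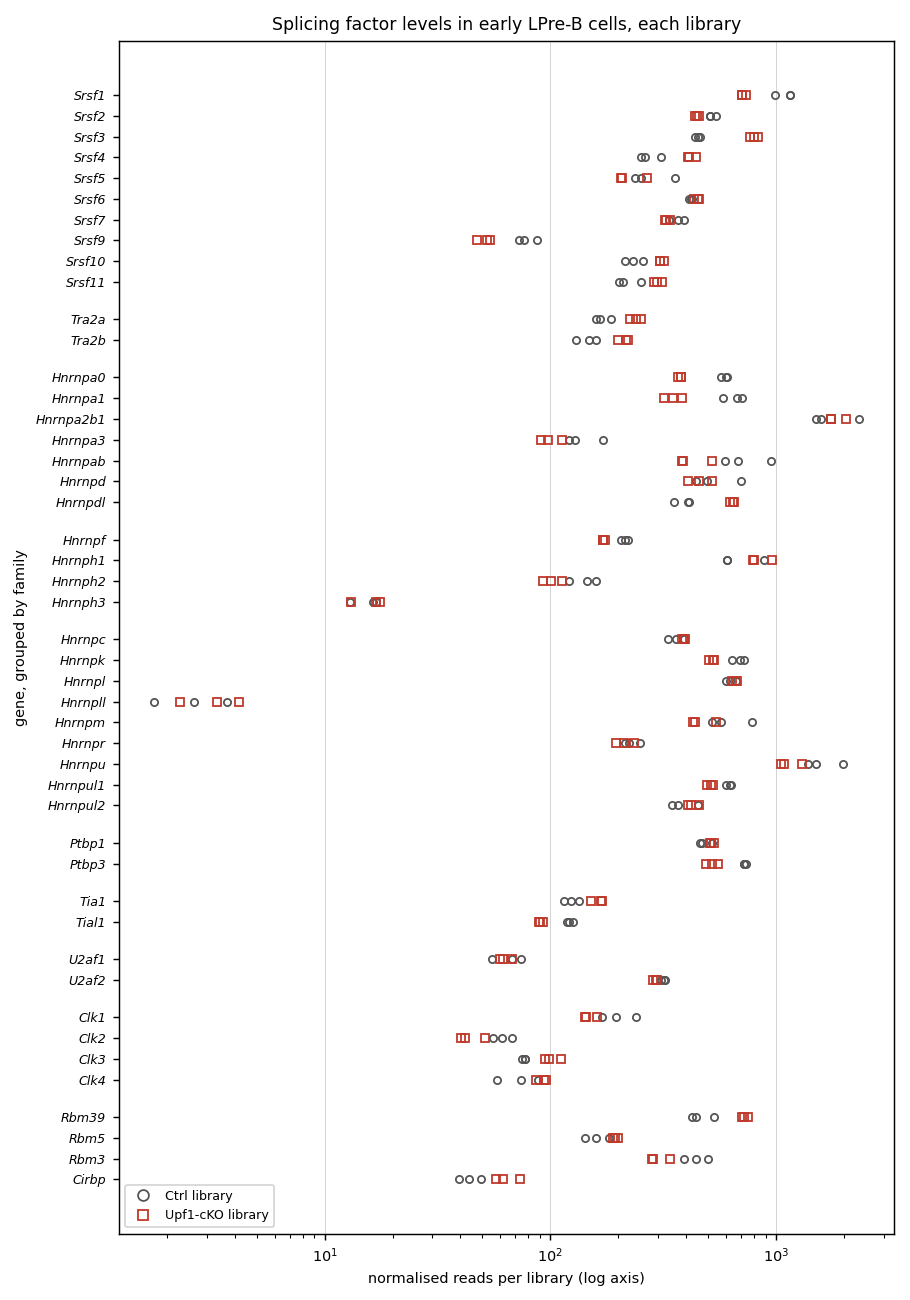
Normalised reads (log axis) of the 46 genes in each of the 3 Ctrl (grey circles) and 3 *Upf1*-cKO (red squares) libraries, grouped by family. The groups are apart for 31 genes, with *Srsf3* at 436 to 461 in Ctrl and 764 to 831 in *Upf1*-cKO, and *Hnrnpll* is the lowest gene.

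Among the 10 classical and related SR protein genes, 4 were higher (*Srsf3*, *Srsf4*, *Srsf10* and *Srsf11*), 3 were lower (*Srsf1*, *Srsf2* and *Srsf9*) and 3 were not called. These are 40% and 30% of a set of 10, against 27.7% and 25.0% of all genes. *Srsf3*, the smallest SR protein, which also links splicing to mRNA export, was at 451, 436 and 461 normalised reads in Ctrl and at 797, 764 and 831 in *Upf1*-cKO. All *Upf1*-cKO libraries lay above all Ctrl libraries, the mean was 178% of Ctrl, and the log2 fold change of 0.83 (SE 0.0681, limma adjusted p = 1.17e-08) was the largest rise among the 46 genes. *Srsf3* (Entrez 20383) lies at chr17:29032660-29043372, and its annotated stop-containing exon is the first of the sequences above.

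*Srsf4*, a larger SR protein of the same family, was at 262, 253 and 309 normalised reads in Ctrl and at 410, 441 and 409 in *Upf1*-cKO. The groups were apart, with a log2 fold change of 0.62 (SE 0.0812, limma adjusted p = 4.33e-06). *Srsf10*, an SR protein that represses splicing when dephosphorylated, was at 215, 233 and 258 in Ctrl and at 306, 317 and 307 in *Upf1*-cKO (0.40, limma adjusted p = 2.85e-04). It was the single higher member without an annotated NMD transcript. *Srsf11* was at 200.7, 211 and 253 in Ctrl and at 288, 311 and 296 in *Upf1*-cKO (0.44, limma adjusted p = 2.79e-04).

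*Srsf1*, the founding SR protein, moved the other way. It was at 988, 1151 and 1158 normalised reads in Ctrl and at 707, 734 and 705 in *Upf1*-cKO, so its mean was 65.1% of Ctrl (log2 fold change -0.61, SE 0.0735, limma adjusted p = 1.31e-06). *Srsf9*, its close relative, was at 76.8, 72.3 and 87.5 in Ctrl and at 52.3, 47.5 and 53.8 in *Upf1*-cKO (-0.61, SE 0.0948, limma adjusted p = 2.75e-05). Both genes have annotated NMD transcripts, that of *Srsf9* with a stop in an exon of its own.

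*Srsf2*, an SR protein that binds exonic enhancers, was at 512, 541 and 511 in Ctrl and at 448, 454 and 439 in *Upf1*-cKO (-0.22, limma adjusted p = 0.0104). Its exons overlap *Mfsd11* and *Mettl23* on the other strand, and the reads were counted without strand, so its value is uncertain. *Srsf6* was at 412, 426 and 420 in Ctrl and 452, 457 and 433 in *Upf1*-cKO. Those groups did not overlap, but the gene was not called (0.09, limma adjusted p = 0.259). *Srsf6* was called higher after quantile normalization and after scaling to total reads, with a log2 fold change of up to 0.30. *Srsf5* (-0.30, limma adjusted p = 0.204) and *Srsf7* (-0.15, limma adjusted p = 0.109) were not called and their groups overlapped. *Srsf5* was called lower without *Upf1*-cKO replicate 2 (-0.43, limma adjusted p = 0.0344) and was smaller without Ctrl replicate 3 (-0.12, limma adjusted p = 0.342). *Srsf7* was called lower without Ctrl replicate 1 (-0.20, limma adjusted p = 0.0171) and was at -0.0935 without Ctrl replicate 3.

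Both TRA2 genes, whose products activate exons with GAA-rich enhancers together with SR proteins, were higher. *Tra2b* was at 130, 148 and 160 normalised reads in Ctrl and at 199, 217 and 222 in *Upf1*-cKO (log2 fold change 0.54, SE 0.0848, limma adjusted p = 3.09e-05). *Tra2a* was at 160, 167 and 185 in Ctrl and at 227, 239 and 251 in *Upf1*-cKO (0.48, SE 0.0790, limma adjusted p = 4.7e-05). The lowest *Upf1*-cKO library was above the highest Ctrl library for each, and the ratio of the 2 genes overlapped between the groups.

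Among the 20 hnRNP genes there were 1 higher, 9 lower and 10 not called by limma. The lower share was 45.0%, against 25.0% of all genes and 31.3% of those with a mean log2 value of at least 3. The median log2 fold change of the hnRNP genes was -0.25, against 0.01 over all genes. Without Ctrl replicate 3 and *Upf1*-cKO replicate 2 the counts were 2 higher and 10 lower, with *Hnrnph1* added to the higher and *Hnrnpm* to the lower genes. The excess of lower calls depends on the scaling: after scaling to total reads 4 were higher and 3 lower (15.0% lower, against 14.4% of all genes), and after quantile normalization 6 were higher and 6 lower (30%, against 27.9%). With all libraries and the deposited scaling the single higher gene was *Hnrnpdl*, a paralog of the AU-rich element binding protein hnRNP D.

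*Hnrnpdl* was at 352, 410 and 413 normalised reads in Ctrl and at 648, 625 and 648 in *Upf1*-cKO. Its mean was 164% of Ctrl (log2 fold change 0.71, SE 0.0749, limma adjusted p = 2.68e-07) and the groups were far apart. *Hnrnpd* was at 443, 492 and 699 in Ctrl and at 457, 523 and 407 in *Upf1*-cKO, with overlapping groups (-0.22, limma adjusted p = 0.381). Its value ranged from -0.35 without Ctrl replicate 1 to -0.0227 without Ctrl replicate 3. Both genes have annotated NMD transcripts that splice after the ordinary stop.

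*Hnrnpa1*, which antagonises SRSF1 in splice site choice, had the largest fall. It was at 585, 670 and 707 normalised reads in Ctrl and at 319, 383 and 348 in *Upf1*-cKO, a mean of 53.5% of Ctrl (log2 fold change -0.90, SE 0.0843, limma adjusted p = 6.01e-08). *Hnrnpa0*, an intronless relative that also binds AU-rich elements, was at 571, 601 and 604 in Ctrl and at 367, 380 and 381 in *Upf1*-cKO (-0.65, SE 0.0678, limma adjusted p = 2.28e-07). *Hnrnpa1* belongs to a family with processed pseudogenes, so part of its reads may have been assigned elsewhere or left out at alignment.

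*Hnrnpab* was at 592, 681 and 952 in Ctrl and at 387, 523 and 384 in *Upf1*-cKO (-0.77, SE 0.224, limma adjusted p = 0.0364), and was the called member nearest the threshold. *Hnrnpa3* was at 129, 121 and 171 in Ctrl and at 97.9, 113 and 91.2 in *Upf1*-cKO (-0.47, limma adjusted p = 0.00439). In both, the highest library of each group was Ctrl replicate 3 or *Upf1*-cKO replicate 2, and the groups still did not overlap.

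*Hnrnpa2b1* showed no call at the highest level of the module. It was at 1509, 1579 and 2335 normalised reads in Ctrl and at 1760, 2043 and 1751 in *Upf1*-cKO (0.06, SE 0.179, limma adjusted p = 0.808). Without Ctrl replicate 3 the gene was called higher (0.26, limma adjusted p = 0.00609), as it was after quantile normalization (0.40, limma adjusted p = 0.0228), and without both Ctrl replicate 3 and *Upf1*-cKO replicate 2 it was not called (0.19, limma adjusted p = 0.0649). Per kb of exon it had 274.5 normalised reads in Ctrl, ahead of *Hnrnpab* with 266.5 and *Hnrnpa0* with 221, where *Hnrnpll* had 0.23. The per-kb levels of *Hnrnpa2b1* and *Hnrnpab* in Ctrl are close beside the spread of their libraries, so their order is not resolved.

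Of the F/H genes, whose proteins bind G-rich runs, *Hnrnpf* was at 207, 221 and 214 in Ctrl and at 174, 171 and 172 in *Upf1*-cKO (-0.31, limma adjusted p = 0.00135). *Hnrnph2* was at 122, 146 and 160 in Ctrl and at 101, 113 and 92.9 in *Upf1*-cKO (-0.47, limma adjusted p = 6.83e-04). *Hnrnph1* (0.29, limma adjusted p = 0.163) and *Hnrnph3* (0.04, limma adjusted p = 0.846) were not called. For *Hnrnph1* the 3 Ctrl values of 605, 610 and 884 spanned part of the *Upf1*-cKO values of 796, 959 and 790, and without Ctrl replicate 3 the gene was called higher (0.48, limma adjusted p = 4.84e-05).

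Among the 9 genes of the C, K, L, M, R and U groups, 3 were lower and 0 higher by limma. There were 0 higher also at an unadjusted p below 0.05, by edgeR and by DESeq2. The lower share was 33.3%, against 25.0% of all genes and 31.3% of those with a mean log2 value of at least 3. These counts move with the scaling of all genes. After scaling to total reads 3 were higher and 0 lower (33.3% higher, against 38.5% of all genes, and 14.4% of all genes lower), and after quantile normalization 3 were higher and 1 lower (24.8% and 27.9% of all genes). *Hnrnpk*, a poly(C) binding protein, was at 639, 721 and 690 in Ctrl and at 506, 530 and 526 in *Upf1*-cKO (-0.39, limma adjusted p = 1.29e-04). *Hnrnpu*, a nuclear matrix protein, was at 1389, 1499 and 1989 in Ctrl and at 1082, 1302 and 1047 in *Upf1*-cKO (-0.50, limma adjusted p = 0.0152). *Hnrnpul1* was at 624, 603 and 633 in Ctrl and at 496, 523 and 517 in *Upf1*-cKO (-0.28, limma adjusted p = 0.00197). *Hnrnpm* was the uncalled member nearest the threshold (-0.39, limma adjusted p = 0.0865), with overlapping groups, and was called lower without *Upf1*-cKO replicate 2 (-0.50, limma adjusted p = 0.0135) but not without Ctrl replicate 3 (-0.22, limma adjusted p = 0.0525). It was also called lower with replicate number as a block (limma adjusted p = 0.0215) and after median centring (-0.50, limma adjusted p = 0.0436). It was not called after quantile normalization (-0.18, limma adjusted p = 0.299) or scaling to total reads (-0.19, limma adjusted p = 0.434).

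*Hnrnpc*, *Hnrnpl*, *Hnrnpr*, *Hnrnpul2* and *Hnrnpll* had log2 fold changes between -0.10 and 0.22 and were not called. *Hnrnpul2* was called higher without Ctrl replicate 3 (0.26, limma adjusted p = 0.00769). *Hnrnpll*, which directs *Ptprc* exon skipping in lymphocytes, was the least expressed member, at 1.75, 3.69 and 2.63 normalised reads in Ctrl and 2.29, 4.19 and 3.33 in *Upf1*-cKO. It rested on as few as 16 reads in a library, so only a large difference could have been detected at this depth.

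**Figure D3:**
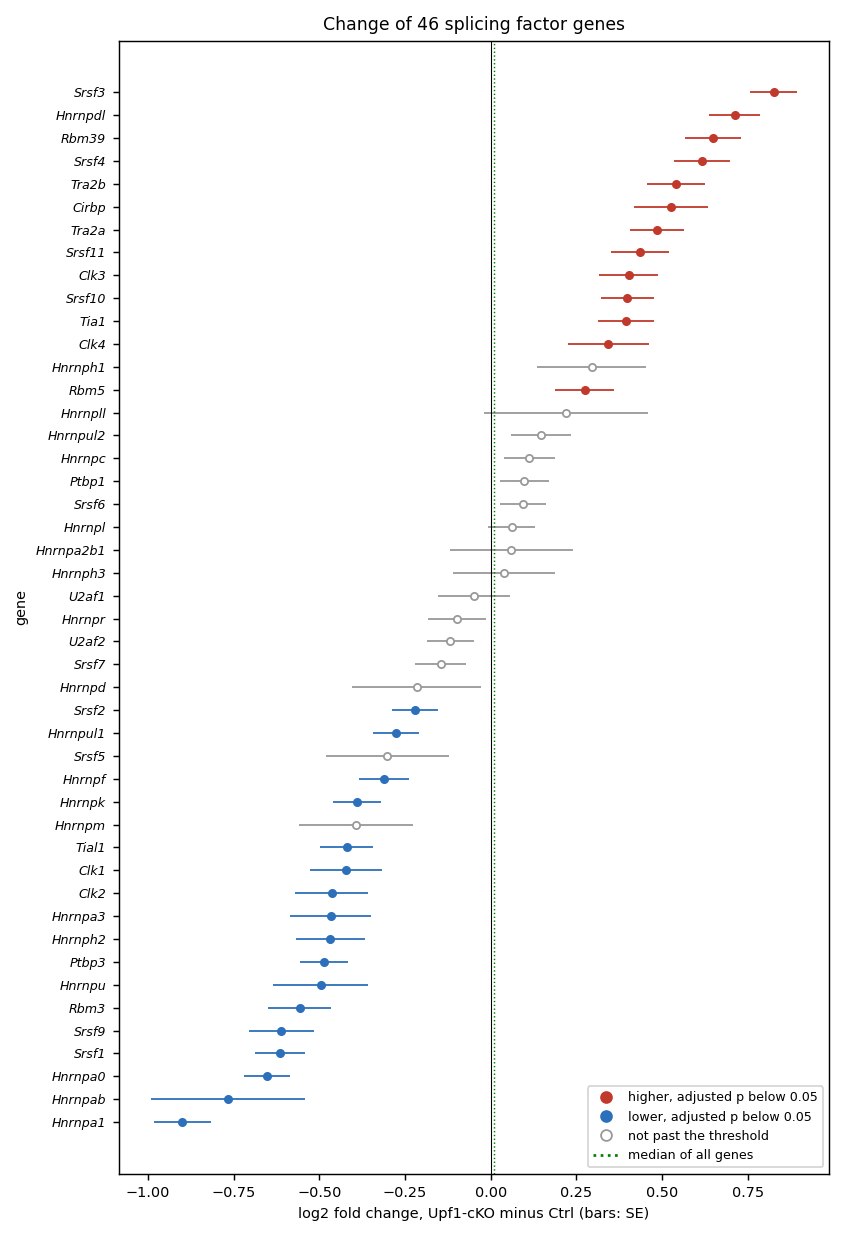
Log2 fold change (*Upf1*-cKO minus Ctrl, horizontal axis, bars show SE) of the 46 genes in order of size, with filled red points for genes called higher, filled blue for lower and open grey for not called. The extremes are *Srsf3* at 0.83 and *Hnrnpa1* at -0.90, and the dotted line is the median of all genes at 0.01.

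The polypyrimidine tract binding proteins repress exons, and PTBP1 and PTBP3 are forms found in blood cells. *Ptbp3* was lower, at 739, 725 and 723 normalised reads in Ctrl and at 552, 490 and 520 in *Upf1*-cKO (log2 fold change -0.49, SE 0.0694, limma adjusted p = 1.08e-05). *Ptbp1* was at 461, 521 and 472 in Ctrl and at 514, 509 and 533 in *Upf1*-cKO and was not called (0.10, limma adjusted p = 0.258). Under 2 of 19 alternatives to the processing *Ptbp1* was called higher, with a log2 fold change of up to 0.31. *Ptbp2*, the neuronal relative whose mRNA is subject to NMD when PTBP1 skips an exon of it, is no member and stood at 41.5 to 53.2 in Ctrl and 192 to 202 in *Upf1*-cKO (log2 fold change 1.99, SE 0.0933, limma adjusted p = 7.14e-12).

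The TIA proteins bind U-rich stretches downstream of weak 5′ splice sites. *Tia1* was higher, at 124, 115 and 134 normalised reads in Ctrl and at 152, 168 and 170 in *Upf1*-cKO (log2 fold change 0.40, SE 0.0823, limma adjusted p = 5.38e-04). *Tial1* was lower, at 126, 119 and 120 in Ctrl and at 93.1, 89.7 and 89.5 in *Upf1*-cKO (-0.42, SE 0.0775, limma adjusted p = 1.66e-04). The gene-level values of this pair, whose printed stretches of 37 bases carry the same base at 25 positions, moved in opposite directions. Both genes also have other annotated NMD transcripts, with stops in other exons.

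The U2AF subunits, which bind the 3′ splice site and polypyrimidine tract, were not called. *U2af1* was at 55.1, 67.6 and 74.5 in Ctrl and at 59.7, 67.9 and 61.8 in *Upf1*-cKO (-0.05, limma adjusted p = 0.713). *U2af2* was at 308, 323 and 320 in Ctrl and at 286, 296 and 295 in *Upf1*-cKO, without overlap but not past the threshold (-0.12, limma adjusted p = 0.164). Under 2 of 19 alternatives, median centring among them, *U2af2* was called lower, with a log2 fold change down to -0.24.

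The CLK kinases phosphorylate SR proteins, and they divided evenly. *Clk1* was lower, at 195, 169 and 240 normalised reads in Ctrl and at 143, 161 and 142 in *Upf1*-cKO (-0.42, limma adjusted p = 0.00271). *Clk2* was lower, at 60.9, 55.8 and 68.0 in Ctrl and at 41.9, 51.2 and 40.3 in *Upf1*-cKO (-0.46, limma adjusted p = 0.00128). *Clk3* was higher, at 77.0, 74.8 and 77.6 in Ctrl and at 98.3, 94.7 and 112 in *Upf1*-cKO (0.40, limma adjusted p = 6.4e-04). *Clk4* was higher by the test, at 73.8, 57.8 and 88.1 in Ctrl and at 93.5, 86.8 and 95.6 in *Upf1*-cKO (0.34, limma adjusted p = 0.024), but Ctrl replicate 3 lay inside the *Upf1*-cKO range, and it was the single called member whose groups overlapped.

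*Rbm39*, a U2AF2-related factor, was at 442, 423 and 532 normalised reads in Ctrl and at 720, 755 and 707 in *Upf1*-cKO, a mean of 156% of Ctrl (log2 fold change 0.65, SE 0.0817, limma adjusted p = 2.46e-06). *Rbm5*, a regulator of apoptotic splicing, was at 159, 142 and 182 in Ctrl and at 193, 200 and 189 in *Upf1*-cKO (0.27, limma adjusted p = 0.0124). The cold-inducible proteins are induced by mild cooling, and their genes parted here. *Cirbp* was at 43.7, 39.6 and 49.1 in Ctrl and at 57.3, 73.2 and 61.7 in *Upf1*-cKO (0.53, SE 0.107, limma adjusted p = 4.51e-04). *Rbm3* was at 391, 444 and 501 in Ctrl and at 285, 339 and 282 in *Upf1*-cKO (-0.56, SE 0.0920, limma adjusted p = 5.7e-05).

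The members were listed as splicing factors of which many are known to be regulated through NMD-coupled exons, so annotated NMD transcripts are not independent of their choice and are given as a description. Of the 35 members with at least 1 such transcript, 12 were higher and 11 lower (34.3% and 31.4%, median log2 fold change 0.04). Of the 11 members without one, 1 was higher and 6 lower (9.09% and 54.5%, median -0.31). After scaling to total reads, which called 38.5% of all genes higher and 14.4% lower, the counts were 15 and 6 with such a transcript (42.9% and 17.1%), and 3 and 2 without (27.3% and 18.2%). Over all genes, 37.2% of 3511 with an NMD transcript were higher and 19.5% lower, against 25.8% and 28.1% of 8644 without (medians 0.12 and -0.02). The higher share of the 35 members (34.3%) was thus near that of all genes with an NMD transcript (37.2%), and their lower share was larger. These are counts with no test.

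The members were also grouped by the layout of the NMD transcript. Of the 15 members whose stop lies in an exon of its own, 8 were higher (*Srsf3*, *Srsf4*, *Srsf11*, *Tra2a*, *Tra2b*, *Tia1*, *Rbm39* and *Cirbp*), 3 lower (*Srsf9*, *Rbm3* and *Tial1*) and 4 not called (*Srsf7*, *Hnrnpl*, *Hnrnpll* and *U2af1*), with a median of 0.40. The shares were 53.3% higher and 20% lower, against 27.7% and 25.0% of all genes and 37.2% and 19.5% of genes with an NMD transcript. Without Ctrl replicate 3 and *Upf1*-cKO replicate 2 these counts were again 8 and 3. Of the 7 with a stop that a coding transcript also uses, 1 was higher (*Hnrnpdl*), 2 lower (*Hnrnpa1* and *Srsf2*) and 4 not called (median 0.04). Of the 12 with a stop in a shared exon, 3 were higher and 4 lower (median -0.11), and of the 8 with an altered coding exon, 3 were higher and 2 lower (median -0.01). A gene with several NMD transcripts is counted in each of its layouts, and this grouping was made with the values known, so it carries no test.

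**Figure D4:**
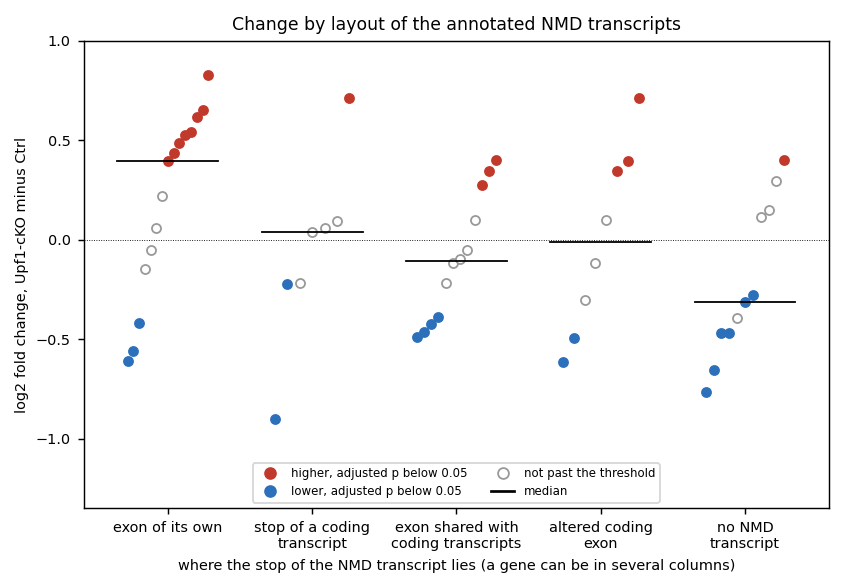
Log2 fold change of the members (vertical axis) by where the stop of their annotated NMD transcripts lies, 1 point per gene and layout, filled red for genes called higher, filled blue for lower, open for not called, with a line at the median of each column. The 15 genes with a stop in an exon of its own have a median of 0.40 and the 11 genes without an NMD transcript a median of -0.31.

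Related genes were compared directly by the log2 ratio of a pair within each library. For 11 of 14 pairs the ratios of the groups did not overlap. No share over all gene pairs was computed, so the count is a description, and 58.8% of single genes did not overlap. An exact two-sided permutation test of 3 against 3 libraries cannot go below 0.1, and these 11 pairs were at that limit (0.127 after Benjamini-Hochberg adjustment over 14 pairs), so none could pass the threshold. In 4 pairs the members were called in opposite directions: *Tia1* and *Tial1*, *Clk1* and *Clk4*, *Clk2* and *Clk3*, and *Rbm3* and *Cirbp*. The calls of *Clk1* and *Clk2* were lost after scaling to total reads, and that of *Clk4* under other alternatives. The members of *Tia1* and *Tial1* and of *Rbm3* and *Cirbp* kept theirs throughout.

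The largest shift was that of *Rbm3* over *Cirbp*, whose log2 ratio was 3.13, 3.46 and 3.32 in Ctrl and 2.30, 2.20 and 2.17 in *Upf1*-cKO, a difference of -1.08. *Srsf3* over *Srsf7* had log2 ratios of 0.42, 0.25 and 0.23 in Ctrl and 1.31, 1.16 and 1.35 in *Upf1*-cKO (difference 0.97). *Hnrnpa1* over *Hnrnpa2b1* had log2 ratios of -1.37, -1.24 and -1.72 in Ctrl and -2.46, -2.41 and -2.33 in *Upf1*-cKO (difference -0.96). Each *Upf1*-cKO library lay outside the Ctrl range in all of these.

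*Hnrnpd* over *Hnrnpdl* shifted by -0.93, *Clk2* over *Clk3* by -0.87, *Tia1* over *Tial1* by 0.82, *Clk1* over *Clk4* by -0.77 and *Hnrnph1* over *Hnrnph2* by 0.76 on the log2 scale. Smaller shifts were those of *Ptbp1* over *Ptbp3* (0.59), *Srsf4* over *Srsf6* (0.52) and *Hnrnpul1* over *Hnrnpul2* (-0.42). The ratios overlapped for *Tra2a* over *Tra2b* (difference -0.06, exact permutation p = 0.3), *Hnrnpl* over *Hnrnpll* (-0.16, exact permutation p = 0.6) and *Srsf1* over *Srsf9* (-0.0034, exact permutation p = 1). The coding sequences of the pairs were 62.1% to 85.4% identical over aligned bases, with *Hnrnph1* and *Hnrnph2* the most alike.

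**Figure D5:**
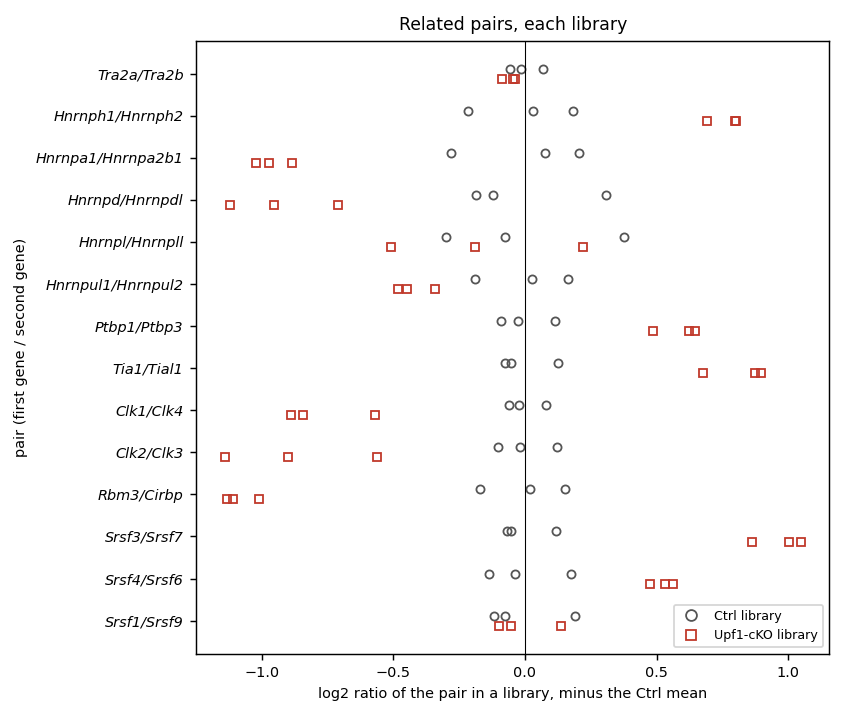
Log2 ratio of the first to the second gene of 14 related pairs in each library, with the mean of the Ctrl libraries subtracted (horizontal axis); grey circles are Ctrl and red squares *Upf1*-cKO libraries. The groups overlap for *Tra2a*/*Tra2b*, *Hnrnpl*/*Hnrnpll* and *Srsf1*/*Srsf9* and are apart for the other 11 pairs.

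The wider splicing machinery was read from lists of genes that are no members. Of 55 genes of the core snRNPs and spliceosome, 10 were higher and 27 lower by limma (18.2% and 49.1%, against 27.7% and 25.0% of all genes, median log2 fold change -0.27), and 12 higher and 15 lower after scaling to total reads (21.8% and 27.3%, against 38.5% and 14.4% of all genes). The largest changes were *Prpf3* of the U4/U6 snRNP at 0.98, *Snrpg* of the Sm ring at -0.91 and *Sf3b5* of the U2 snRNP at -0.83. Of 30 genes for SR kinases, SR-like and coactivator proteins, 5 were higher and 10 lower (median -0.01), and 12 and 5 after scaling to total reads (40% and 16.7%, against 38.5% and 14.4% of all genes). The list was led by the U1-associated *Luc7l* at 1.37, *Snrnp48* of the minor spliceosome at 1.23 and *Bclaf1* at 0.90. Of 62 other hnRNP-like genes and splicing regulators, 16 were higher and 28 lower (median -0.20), and 22 and 11 after scaling to total reads (35.5% and 17.7%). The list was led by *Ptbp2* at 1.99, *Ybx1* at -0.93 and *Safb2* at 0.90.

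Genes of proliferating cells moved with the falls. Of 24 proliferation markers, 21 were lower and 2 higher by limma (median log2 fold change -0.60), against 25.0% lower and 27.7% higher of all genes. After scaling to total reads 16 were lower (14.4% of all genes) and after quantile normalization 18 (27.9%). Their summed level was 13390 to 14060 normalised reads in Ctrl and 9089 to 9262 in *Upf1*-cKO. Of 6 markers of later B cell stages, 3 were lower and 1 higher, also under both rescalings, with a summed level of 61.1 to 72.1 in Ctrl and 37.1 to 40.5 in *Upf1*-cKO. The part of these differences in the lower levels of *Srsf1*, *Hnrnpa1*, *Hnrnpab* and the other members was not tested.

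Of the 30 called members, 19 kept their call under all 19 alternatives to the processing (11 higher and 8 lower). The other 11 lost it under at least 1 alternative, and no called member changed direction. Those 11 were *Srsf2*, *Hnrnpa3*, *Hnrnpab*, *Hnrnpf*, *Hnrnpk*, *Hnrnpu*, *Hnrnpul1*, *Clk1*, *Clk2*, *Clk4* and *Rbm5*. Scaling to total reads removed the call of 9 of them, all but *Clk4* and *Rbm5*. For 5 members the adjusted p passed 0.05 when 1 library was left out, which also left fewer samples, while the log2 fold change kept its direction. That of *Srsf2* was lost without *Upf1*-cKO replicate 3 (-0.21, limma adjusted p = 0.0611), and that of *Hnrnpu* without Ctrl replicate 2 (-0.55, limma adjusted p = 0.0726). That of *Rbm5* was lost without Ctrl replicate 2 (log2 fold change 0.19, limma adjusted p = 0.063) or *Upf1*-cKO replicate 2 (0.25, limma adjusted p = 0.0607). That of *Hnrnpab* was lost without Ctrl replicate 2 or *Upf1*-cKO replicate 1 or 3 (log2 fold change from -0.81 to -0.69, limma adjusted p from 0.0675 to 0.104), and that of *Clk4* without Ctrl replicate 1 or 2 or *Upf1*-cKO replicate 1 or 3 (log2 fold change from 0.19 to 0.36, limma adjusted p from 0.0699 to 0.119). The 13 called members whose exons overlap those of another gene, among them *Srsf1*, *Srsf4*, *Hnrnpab*, *Hnrnpu*, *Ptbp3*, *Tia1*, *Clk3* and *Rbm3*, are uncertain for that reason, since reads in a shared stretch cannot be assigned with certainty.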

How the data were processed

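Early LPre-B cells were sorted by the authors, ribosomal RNA was depleted, and reads were trimmed with cutadapt 4.0, aligned to mm10 with HISAT2 (single end, without strand) and counted with featureCounts 2.0.1, per the labels and the study's methods. The authors deposited a normalised signal per gene: each value equals a read count plus 0.5 over an effective library size in units of 1e6, worked out from the values. Whole reads were recovered for 100% of values (tolerance 0.02).

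Names and gene coordinates came from RefSeq GRCm38.p6 and transcripts from GENCODE M21. limma 3.58.1 in R 4.3.3 was run on log2(value + 1), with a robust, trended eBayes step, no covariate beside group, and p-values adjusted by Benjamini-Hochberg across 13426 genes. Fold changes of low genes are understated on this scale. voom, edgeR 4.0.16 and DESeq2 1.42.0 were run on the recovered reads as alternatives, beside other scalings, filters and left-out libraries. The fitting was tested on simulated data.

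The members and lists were chosen with earlier results of these data known. Named genes were all members, *Upf1*, *Cd79a*, at most 3 genes per splicing list by size of change, and markers needed beside a result. Sequences shown were those of called members with a stop in an exon of its own. *Cirbp*, with 5 bases, was left out. The study describes its replicates as independent biological ones. The labels do not tie a library to an animal.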

Additional observations from a re-analysis of the deposited data

How the results depend on the processing

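The fit without both Ctrl replicate 3 and *Upf1*-cKO replicate 2 was chosen after seeing the data. The count models voom, edgeR and DESeq2 on recovered reads each called 13 members higher and 17 lower, as did the filters on low values and a pseudocount of 0.1. Scaling mattered more: the median of all genes moved to 0.19 on the log2 scale after scaling to total reads and to -0.10 after median centring, from 0.01. Members called higher numbered 20 after quantile normalization, and members called lower 8 after scaling to total reads. Leaving out 1 library gave 11 to 16 members higher, 15 to 19 lower and 11 to 12 pairs without overlap. *Upf1* was no longer past the threshold without the eBayes trend (0.31), after median centring (0.20) or with the length and GC trend removed (0.10), and ranged from 0.19 to 0.40 without 1 library.

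Core snRNP genes called higher were 5 without the eBayes trend and 6 after median centring, and 15 were called lower after scaling to total reads (7 to 10 higher and 25 to 29 lower without 1 library). SR kinase and SR-like genes called higher were 8 after quantile normalization, 12 after scaling to total reads and 8 without Ctrl replicate 3 (4 to 8 without 1 library), and 5 were lower after scaling to total reads (7 to 11 without 1 library). Other hnRNP-like genes called lower were 11 after scaling to total reads (22 to 29 without 1 library, with 12 to 16 higher). Proliferation markers called higher were 1 without the eBayes trend, with DESeq2, after median centring and with the length and GC trend removed (1 to 2 without 1 library, with 20 to 21 lower). *Hnrnpa2b1* in Ctrl was at 495.9 normalised reads per kb by its longest transcript. The cause of these changes was not tested.

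Signs turned for members that were not called. After median centring the log2 fold change was -0.0149 for *Srsf6*, -0.049 for *Hnrnpa2b1*, -0.0697 for *Hnrnph3*, -0.0477 for *Hnrnpl* and -0.01 for *Ptbp1*. After quantile normalization it was 0.023 for *Srsf7*, 0.0073 for *Hnrnpd*, -0.0911 for *Hnrnph3*, 0.0008 for *Hnrnpr* and 0.0232 for *U2af2*. After scaling to total reads it was 0.0577 for *Srsf7*, 0.10 for *Hnrnpr*, 0.15 for *U2af1* and 0.0859 for *U2af2*. With the length and GC trend removed it was -0.005 for *Hnrnpa2b1*, -0.0842 for *Hnrnpl*, -0.0706 for *Ptbp1* and 0.0267 for *U2af1*. Without 1 library it lay between -0.0562 and 0.2583 for *Hnrnpa2b1* (-0.0237 without Ctrl replicate 2 and -0.0134 without *Upf1*-cKO replicate 2), between -0.071 and 0.1614 for *Hnrnph3* (-0.0346 and -0.0105 without *Upf1*-cKO replicate 1 or 2), and between -0.17 and 0.0447 for *U2af1*, the latter without Ctrl replicate 3.

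Replicate numbers did not pair the libraries: the correlations of same-numbered libraries were 0.126, -0.0632 and -0.0792 over 9202 genes. With a replicate block 13 members were higher and 18 lower. Depth limited *Hnrnpll* most, at 16 reads in its lowest library.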
